A study of Mus musculus with 30 samples.

Results

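Arc, Npas4, Nr4a1, Nr4a2, Nr4a3, Fos, Fosb, Junb, Egr1 and Egr2 are immediate early genes whose transcripts rise within minutes of neuronal firing. Their levels were read from microarrays of mouse brain tumors and normal brain. These 10 genes, of 19938 with a level on the array, were taken by symbol from the array's probe annotation, using probe sets that carry a single gene symbol. Each of the 10 had 1 such probe set. They were chosen by their function and by earlier results of these data, in which the log2 differences of several were already listed as lower in tumors made with GFAP-CRE, so the comparisons of those tumors in cortex and hippocampus with normal tissue are given below as a description, without a test. The other comparisons below reuse normal or GFAP arrays behind that choice, so their p-values are not independent of it.

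The study hybridised total RNA of 30 tissue samples to Affymetrix Mouse Gene 1.0 ST arrays, which read each transcript with many short probes. In the tumor samples, a Cre recombinase had been injected into a named brain region, and the labels give the promoter with each. The GFAP promoter is used to reach astrocytes and neural stem cells, SYN1 to reach neurons, and NES (nestin) to reach neural progenitors. The groups are 3 tumors after GFAP-CRE in the subventricular zone (SVZ), 4 after NES-CRE in the hippocampus, 7 after GFAP-CRE in the hippocampus, 4 after SYN1-CRE in the cortex, 4 after GFAP-CRE in the cortex, 4 samples of normal hippocampus and 4 of normal cortex. The labels give no strain, age, sex, Cre vector or floxed allele, and normal SVZ is not among them. The SVZ tumors are therefore compared with the average of normal hippocampus and normal cortex. Whether the arrays of a group represent different animals is not labelled, so each p-value reflects array-to-array spread within groups, part of which could be technical.

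Immediate early genes are switched on by transcription factors that are already present in the resting cell. In a neuron, calcium entering through NMDA receptors and voltage-gated channels leads to phosphorylation of CREB, while the ERK pathway acts through serum response factor and its partners. The products are themselves mostly transcription factors: Npas4 is a neuron-restricted factor that answers calcium entry, the Nr4a genes encode orphan nuclear receptors, Fos, Fosb and Junb form the AP-1 dimer, and Egr1 and Egr2 are zinc finger factors. Arc is the exception, a protein of the postsynapse that controls AMPA receptor uptake. Several of them, Fos, Junb and Egr1 in particular, are also switched on by growth factors and stress in many other cells.

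CREB binds the cyclic AMP response element, whose core reads TGACG. The RefSeq promoter table (GRCm38.p6) holds 8 of the 10 genes, all but Arc and Egr1. All 8 carry at least 1 TGACG, on either strand, in at least one window of 250 bases before an annotated start, against 17.765% of 32851 such windows in the table. Nr4a1, Nr4a2 and Nr4a3 carry 4 each, a number reached by 0.137% of windows. Npas4 and Fos carry 2, as do 3 of the 5 Egr2 windows, where 3.902% of windows hold 2 or more, and Fosb and Junb carry 1. Those 3 Egr2 windows overlap and hold the same 2 matches, so they are not separate counts. Shown are the 3 Nr4a genes and Npas4, whose tumor differences below are large, and Junb, whose differences are small. Fosb, with 1 match like Junb, and Fos and Egr2, with 2 like Npas4, are not shown. A link between the number of matches and the tumor differences was not tested. The sequences run 5′ to 3′ along the gene's strand and end at the base before the start. TGACG and its reverse complement CGTCA are in capitals.
Nr4a1 (chr15:101266596-101266845, plus strand): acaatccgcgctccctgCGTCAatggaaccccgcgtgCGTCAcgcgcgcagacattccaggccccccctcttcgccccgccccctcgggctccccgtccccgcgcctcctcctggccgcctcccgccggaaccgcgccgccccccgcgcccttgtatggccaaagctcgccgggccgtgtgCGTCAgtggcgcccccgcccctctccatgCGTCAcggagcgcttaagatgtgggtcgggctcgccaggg
Nr4a2 (chr2:57124004-57124253, minus strand): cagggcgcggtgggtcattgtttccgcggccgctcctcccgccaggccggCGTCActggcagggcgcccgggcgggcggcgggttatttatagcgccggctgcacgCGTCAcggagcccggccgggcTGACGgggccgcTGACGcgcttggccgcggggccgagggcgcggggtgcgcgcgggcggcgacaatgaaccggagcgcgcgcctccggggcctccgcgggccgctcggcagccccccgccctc
Nr4a3 (chr4:48045055-48045304, plus strand): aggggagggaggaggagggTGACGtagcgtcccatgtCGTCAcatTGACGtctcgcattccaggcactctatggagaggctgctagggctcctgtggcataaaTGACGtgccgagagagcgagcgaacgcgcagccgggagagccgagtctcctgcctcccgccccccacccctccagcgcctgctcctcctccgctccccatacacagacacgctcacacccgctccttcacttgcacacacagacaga
Npas4 (chr19:4989972-4990221, minus strand): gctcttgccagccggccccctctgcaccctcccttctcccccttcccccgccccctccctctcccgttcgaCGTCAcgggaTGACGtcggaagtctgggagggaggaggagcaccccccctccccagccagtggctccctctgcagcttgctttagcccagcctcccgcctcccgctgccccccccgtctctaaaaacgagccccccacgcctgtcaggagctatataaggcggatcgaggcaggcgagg
Junb (chr8:84978749-84978998, minus strand): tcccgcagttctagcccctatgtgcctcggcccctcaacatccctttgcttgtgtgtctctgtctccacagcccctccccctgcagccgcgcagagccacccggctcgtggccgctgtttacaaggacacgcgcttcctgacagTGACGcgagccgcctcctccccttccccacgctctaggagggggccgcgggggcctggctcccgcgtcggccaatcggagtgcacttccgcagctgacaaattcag
The TGACG matches of Nr4a1 begin 233, 213, 69 and 40 bases before its start. Those of Nr4a2 begin 200, 144, 123 and 111 bases before it, and those of Nr4a3 begin 231, 213, 205 and 147 bases before it. The full element TGACGTCA, present in 1.546% of windows, and the AP-1 motif TGANTCA, in 6.749%, have no match in the windows of these 8 genes. The CArG box, bound by serum response factor and present in 1.467% of windows, has a match in 4 of the 5 Egr2 windows. The Egr2 windows with TGACG overlap and share the same CArG match, so they are not separate counts. The EGR motif GCGNGGGCG, present in 4.697% of windows, has 1 match each in Nr4a1, Nr4a2 and Fosb. These motifs were searched on both strands, TGACGTCA contains TGACG, and a match is a run of letters, not a site shown to be bound.

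The tissues carried the markers of their labels. The mean log2 signal of 12 neuron markers lay between 8.13 and 11.83 in the 22 tumor arrays and between 11.71 and 12.22 in the 8 normal arrays. Dividing cell markers (Mki67, Top2a, Cdk1) averaged 7.98 to 10.52 in tumors and 6.44 to 6.85 in normal tissue, and 8 microglia and macrophage markers averaged 9.23 to 10.88 in tumors and 8.14 to 8.48 in normal tissue. Array medians ran from 7.03 to 7.30. The tumor numbered 1 of the GFAP cortex group stood apart by a narrow spread of signals (interquartile range 2.02, against 2.26 to 3.07 in the other 21 tumor arrays), and GFAP hippocampus tumors 5 to 7 stood apart by low medians. The same array had the lowest astrocyte (7.68), oligodendrocyte (7.42) and neuron (8.13) marker means of all 30 arrays and the highest mural and fibroblast mean (10.85). Calls and counts of the 10 genes and of the pathway lists between tumor and normal tissue that differ without these 4 arrays are given both ways. Arrays that did not overlap were common. Over all genes, 25.9% were lower without overlap in SYN1 cortex, 23.9% in GFAP cortex and 23.2% in SVZ tumors. In hippocampus this share was 17.8% in GFAP and 11% in NES tumors. The share over all 22 tumor and 8 normal arrays was not counted. In tissue, fewer cells of a type and less RNA per cell cannot be told apart.

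**Figure D1:**
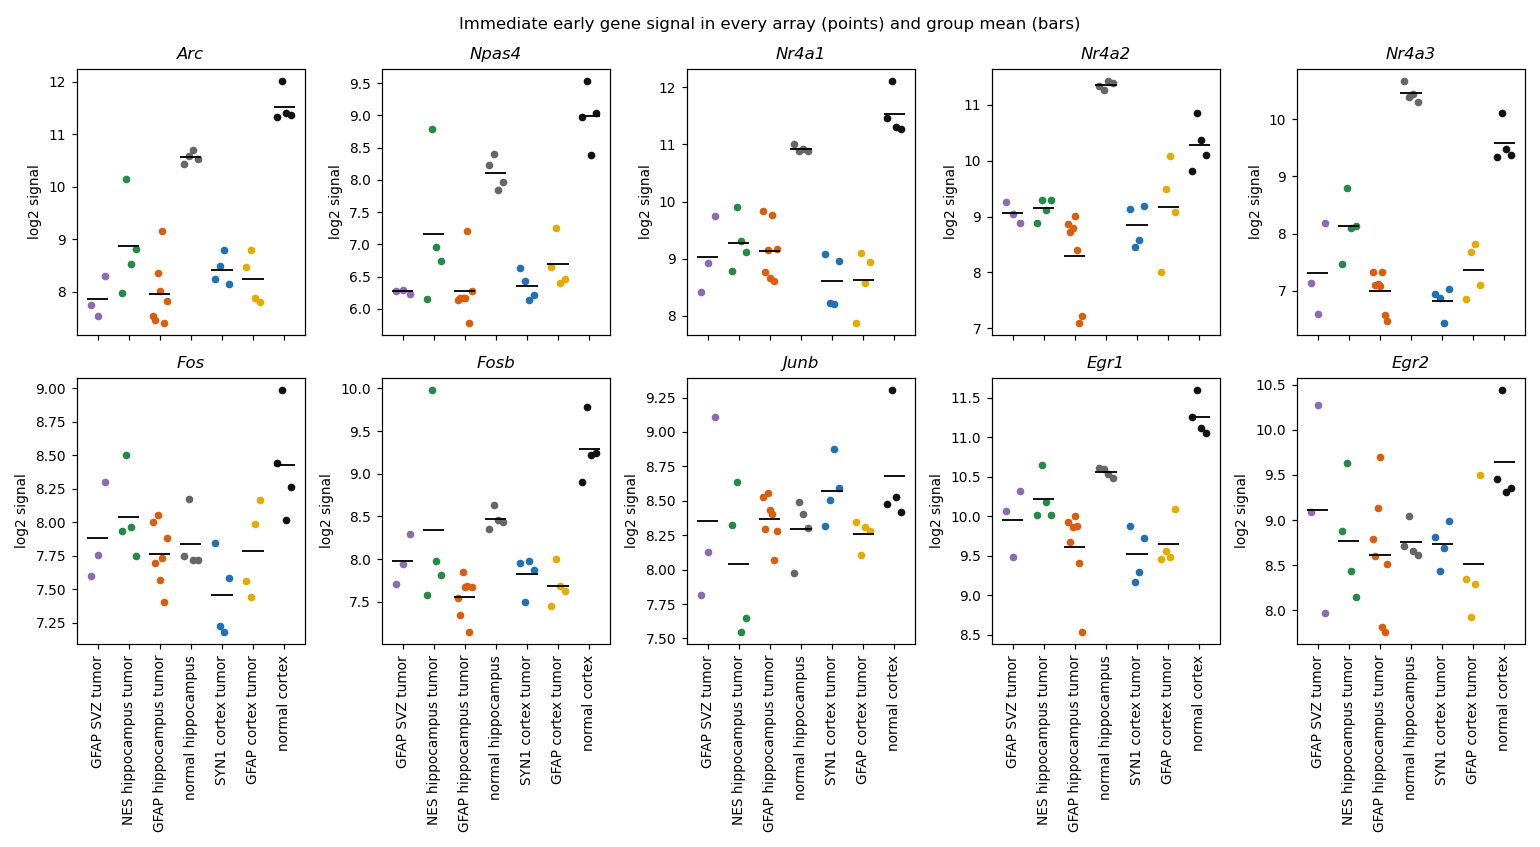
Log2 signal (y axis, a separate scale for each gene) of the 10 genes in every array, by group along the x axis; points are arrays and bars are group means. Arc, Nr4a1 and Nr4a3 sit lower in all 22 tumor arrays than in all 8 normal arrays, while tumor and normal arrays overlap for Junb and Fos. The share of all genes separated in this way was not counted.

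Arc had the largest difference of the 10 genes in SYN1, SVZ and GFAP cortex tumors. Its log2 signal was 8.25, 8.50, 8.80 and 8.14 in SYN1 cortex tumors and 8.47, 8.80, 7.88 and 7.81 in GFAP cortex tumors, against 11.32, 12.02, 11.40 and 11.36 in normal cortex. In hippocampus it was 7.98, 10.14, 8.53 and 8.82 in NES tumors, and 7.41 to 9.16 with a median of 7.83 in GFAP tumors, against 10.44, 10.59, 10.70 and 10.54 in normal tissue. The 3 SVZ tumors read 7.75, 7.55 and 8.30. Every tumor array was below every normal array, and NES tumor 2 came closest. How many of all genes separate in this way was not counted. Relative to normal cortex, Arc fell by 3.10 in SYN1 tumors on the log2 scale (SE 0.36, 8.59-fold, limma adjusted p = 5.67e-07). In SVZ tumors it fell by 3.18 relative to the mean of both normal tissues (SE 0.34, limma adjusted p = 4.07e-07), and in NES tumors it fell by 1.70 relative to normal hippocampus (SE 0.36, 3.24-fold, limma adjusted p = 0.00305). The mean log2 differences of the GFAP tumors were -3.28 in cortex and -2.60 in hippocampus.

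Npas4, the factor most specific to neurons in this set, was near the same low level in most tumors. Its log2 signal was 6.64, 6.43, 6.14 and 6.22 in SYN1 cortex tumors and 6.64, 7.25, 6.41 and 6.47 in GFAP cortex tumors, against 8.98, 9.54, 8.39 and 9.04 in normal cortex. SVZ tumors read 6.28, 6.30 and 6.24. In hippocampus it was 6.15, 8.78, 6.97 and 6.75 in NES tumors, and 5.78 to 7.20 with a median of 6.17 in GFAP tumors, against 8.24, 8.40, 7.84 and 7.97 in normal hippocampus. NES tumor 2 alone among the 22 tumors reached the normal range, and lay above all 4 normal hippocampus arrays. Most other tumor values lay below the array medians of 7.03 to 7.30, and whether they sit at background was not tested. Npas4 fell by 2.63 in SYN1 tumors (SE 0.36, 6.19-fold, limma adjusted p = 3.19e-06) and fell by 2.28 in SVZ tumors (SE 0.34, limma adjusted p = 1.22e-05). The NES difference was -0.95 (SE 0.36, limma adjusted p = 0.103), and without NES tumor 2 it was -1.49 (limma adjusted p = 0.0015). The GFAP tumors differed from normal tissue by a mean of -2.29 in cortex and -1.84 in hippocampus.

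The 3 Nr4a receptors fell in SYN1, NES and SVZ tumors alike. Nr4a1 read 9.08, 8.22, 8.21 and 8.95 in SYN1 cortex tumors and 7.88, 9.11, 8.57 and 8.94 in GFAP cortex tumors, against 11.47, 12.11, 11.31 and 11.26 in normal cortex. In hippocampus it read 8.78, 9.91, 9.31 and 9.12 in NES tumors and 8.61 to 9.84, median 9.15, in GFAP tumors, against 11.00, 10.89, 10.92 and 10.88 in normal tissue. The 3 SVZ tumors read 8.41, 8.92 and 9.74, so no tumor array reached a normal one, a separation not counted over all genes. Nr4a1 fell by 2.92 in SYN1 tumors (SE 0.32, 7.58-fold, limma adjusted p = 3e-07), by 1.64 in NES tumors (SE 0.32, limma adjusted p = 0.00147) and fell by 2.21 in SVZ tumors (SE 0.31, limma adjusted p = 5.12e-06). Its GFAP tumor differences were -2.92 in cortex and -1.79 in hippocampus.

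Nr4a3 was also lower in each tumor array than in any normal array, again a separation not counted over all genes. It read 7.46, 8.80, 8.10 and 8.14 in NES tumors and 6.46 to 7.33, median 7.09, in GFAP hippocampus tumors, against 10.68, 10.40, 10.44 and 10.30 in normal hippocampus. In cortex it read 6.93, 6.87, 6.43 and 7.02 in SYN1 tumors and 6.86, 7.67, 7.81 and 7.09 in GFAP tumors, against 9.34, 10.11, 9.48 and 9.38 in normal tissue. SVZ tumors read 7.14, 6.59 and 8.19. All 4 NES tumors were above all 7 GFAP hippocampus tumors, as for 0.983% of all genes. Nr4a3 fell by 2.33 in NES tumors (SE 0.29, 5.04-fold, limma adjusted p = 1.21e-05), where 15 genes of the 19938 had a lower difference. It fell by 2.76 in SYN1 tumors (SE 0.29, limma adjusted p = 2.18e-07) and by 2.71 in SVZ tumors (SE 0.28, limma adjusted p = 2.82e-07). The differences of the GFAP tumors were -3.46 in hippocampus and -2.22 in cortex.

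Nr4a2, also the factor that maintains midbrain dopamine neurons, was, like Nr4a3, highest in normal hippocampus, and its arrays overlapped between GFAP tumors and normal tissue in the cortex. It read 8.88, 9.30, 9.11 and 9.29 in NES tumors and 7.10 to 9.0, median 8.72, in GFAP hippocampus tumors, against 11.34, 11.27, 11.43 and 11.40 in normal hippocampus. In cortex it read 9.14, 8.45, 8.58 and 9.19 in SYN1 tumors and 8.0, 9.50, 10.09 and 9.07 in GFAP tumors, against 9.81, 10.85, 10.37 and 10.10 in normal cortex. GFAP cortex tumor 3 lay inside the normal cortex range, and the hippocampal groups were well apart. Nr4a2 fell by 2.21 in NES tumors (SE 0.38, 4.64-fold, limma adjusted p = 0.000477), by 1.44 in SYN1 tumors (SE 0.38, 2.71-fold, limma adjusted p = 0.0034) and fell by 1.75 in SVZ tumors (SE 0.36, limma adjusted p = 0.000392), where the arrays read 9.27, 9.05 and 8.89. In GFAP tumors the difference was -3.06 in hippocampus and -1.11 in cortex. The hippocampal difference was thus the more negative by 1.94 log2 units, a value given without a test because it is built from the differences that chose the genes.

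Among the AP-1 genes, Fosb passed the test in SYN1 and SVZ tumors, Fos in SYN1 tumors, and Junb in neither. Fosb read 7.95, 7.50, 7.97 and 7.87 in SYN1 cortex tumors and 7.45, 8.0, 7.68 and 7.63 in GFAP cortex tumors, against 8.90, 9.78, 9.22 and 9.24 in normal cortex. In hippocampus it read 7.57, 9.98, 7.98 and 7.81 in NES tumors and 7.15 to 7.84, median 7.67, in GFAP tumors, against 8.35, 8.64, 8.46 and 8.43 in normal tissue. NES tumor 2 held the highest Fosb signal of all 30 arrays, and the other 3 NES tumors were below normal hippocampus. Fosb fell by 1.46 in SYN1 tumors (SE 0.31, 2.76-fold, limma adjusted p = 0.000489). SVZ tumors read 7.71, 7.94 and 8.29, and fell by 0.90 relative to the mean of both normal tissues (SE 0.30, limma adjusted p = 0.0189), a call lost without SVZ tumor 1 (limma adjusted p = 0.108) or SVZ tumor 2 (0.0653). The SVZ mean was 7.98, against 8.47 in normal hippocampus and 9.28 in normal cortex. The NES difference was -0.13 (SE 0.31, limma adjusted p = 0.847), and without NES tumor 2 it was -0.68 (limma adjusted p = 0.0316). With arrays weighted by their fit it turned to 0.87 (limma adjusted p = 0.0139). In the GFAP tumors it was -1.60 in cortex and -0.91 in hippocampus.

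Fos, the usual AP-1 partner of the Jun proteins, was lower in SYN1 tumors. It read 7.85, 7.22, 7.18 and 7.58 there and 7.56, 7.44, 7.99 and 8.16 in GFAP cortex tumors, against 8.44, 8.99, 8.02 and 8.27 in normal cortex, where SYN1 and normal arrays did not overlap. It fell by 0.97 in SYN1 tumors (SE 0.22, 1.96-fold, limma adjusted p = 0.000702), and the GFAP cortex difference was -0.64. In hippocampus, tumors spread around the normal level. NES tumors read 7.94, 8.51, 7.96 and 7.75 and GFAP tumors 7.40 to 8.06, median 7.74, against 7.75, 8.18, 7.72 and 7.72 in normal hippocampus, with differences of 0.20 for NES (SE 0.22, 95% interval -0.24 to 0.64, limma adjusted p = 0.635) and -0.08 for GFAP. SVZ tumors read 7.60, 7.76 and 8.30, a difference of -0.25 (SE 0.21, limma adjusted p = 0.395). Their mean of 7.89 lay between those of normal hippocampus (7.84) and normal cortex (8.43).

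Junb, a Jun protein of the AP-1 dimer, passed the test in none of the 3 tested tumor comparisons. It read 8.31, 8.50, 8.88 and 8.60 in SYN1 cortex tumors and 8.35, 8.10, 8.31 and 8.28 in GFAP cortex tumors, against 8.48, 9.31, 8.53 and 8.42 in normal cortex. In hippocampus it read 8.33, 8.63, 7.55 and 7.65 in NES tumors and 8.07 to 8.56, median 8.40, in GFAP tumors, against 7.97, 8.49, 8.40 and 8.31 in normal tissue. NES, GFAP hippocampus and SYN1 tumors overlapped their normal tissue. The 4 GFAP cortex tumors lay below the 4 normal cortex arrays, as for 23.9% of all genes. The differences were -0.11 in SYN1 tumors (95% interval -0.60 to 0.38, limma adjusted p = 0.78), -0.25 in NES tumors (95% interval -0.74 to 0.24, limma adjusted p = 0.579) and -0.14 in SVZ tumors (95% interval -0.61 to 0.33, limma adjusted p = 0.715), whose arrays read 7.81, 8.13 and 9.11. In the GFAP tumors Junb differed by -0.42 in cortex and 0.07 in hippocampus.

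Egr1 passed the test in SYN1 and SVZ tumors, and Egr2 in none of the 3 tested groups. Egr1, a zinc finger factor of synaptic plasticity, read 9.89, 9.17, 9.30 and 9.73 in SYN1 cortex tumors and 9.46, 9.56, 9.48 and 10.10 in GFAP cortex tumors, against 11.26, 11.60, 11.12 and 11.06 in normal cortex. All tumor arrays in the cortex lay below all normal ones. Egr1 fell by 1.74 in SYN1 tumors (SE 0.25, 3.34-fold, limma adjusted p = 5.78e-06) and by 0.95 in SVZ tumors (SE 0.24, limma adjusted p = 0.00227), whose arrays read 10.07, 9.49 and 10.32. In hippocampus it read 10.02, 10.65, 10.18 and 10.02 in NES tumors and 8.54 to 10.01, median 9.87, in GFAP tumors, against 10.62, 10.60, 10.54 and 10.49 in normal tissue. NES tumor 2 lay above the 4 normal hippocampus arrays, and the other 10 hippocampal tumors lay below them. The NES difference was -0.34 (SE 0.25, 95% interval -0.86 to 0.17, limma adjusted p = 0.448), and the GFAP differences were -1.61 in cortex and -0.94 in hippocampus.

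Egr2, best known for its role in hindbrain patterning and in the myelin programme of Schwann cells, spread over more than 1 log2 unit within several tumor groups. It read 8.81, 8.44, 8.69 and 8.99 in SYN1 cortex tumors and 8.35, 7.93, 8.29 and 9.50 in GFAP cortex tumors, against 9.46, 10.45, 9.31 and 9.36 in normal cortex. The SYN1 difference was -0.92 (SE 0.43, limma adjusted p = 0.0946). SYN1 arrays lay below normal ones without overlap, as for 25.9% of all genes. With only the arrays of these 2 groups in the fit, that difference had a limma adjusted p of 0.00982. In hippocampus it read 8.88, 9.64, 8.43 and 8.14 in NES tumors and 7.76 to 9.70, median 8.61, in GFAP tumors, against 8.71, 9.05, 8.66 and 8.61 in normal tissue. These groups overlapped, with differences of 0.01 for NES (SE 0.43, limma adjusted p = 0.988) and -0.14 for GFAP. The 3 SVZ tumors read 9.09, 10.27 and 7.97 and differed by -0.09 (SE 0.41, limma adjusted p = 0.903), and the GFAP cortex difference was -1.13. The SVZ mean of 9.11 lay between those of normal hippocampus (8.76) and normal cortex (9.64).

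**Figure D2:**
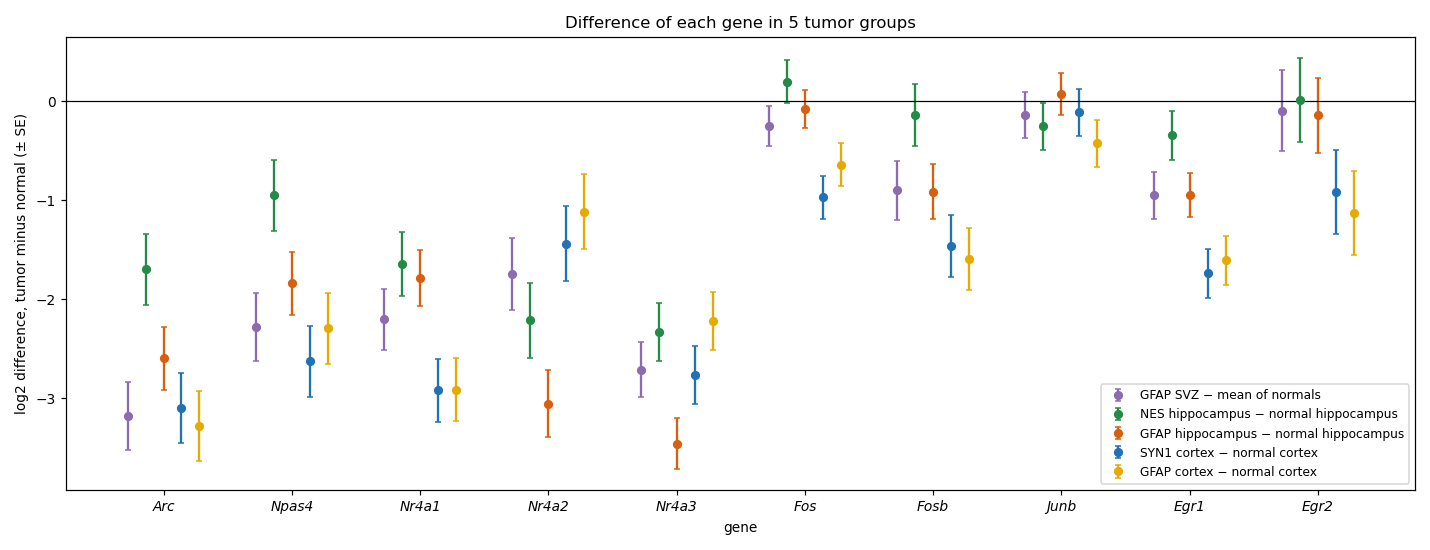
Log2 difference, tumor minus normal (y axis), of each of the 10 genes (x axis) in 5 tumor groups, with bars of 1 standard error from the fit of all 30 arrays. Arc lies between -3.28 and -1.70 in the 5 groups and Nr4a3 between -3.46 and -2.22, while Junb stays between -0.42 and 0.07.

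Counted together, 8 of the 10 genes were lower in SYN1 cortex tumors than in normal cortex at an adjusted p under 0.05, where 20.5% of all 19938 genes were lower. In SVZ tumors 7 of 10 were lower, beside 21.4% of all genes. In NES tumors 4 of 10 were lower, beside 2.86% of all genes, and these were Arc and the 3 Nr4a genes. Without NES tumor 2 the NES count was 6 of 10, beside 1.95% of all genes, with Npas4 and Fosb added. None of the 10 was higher in these 3 comparisons, although array weights called Fosb and Fos (0.53, limma adjusted p = 0.0237) higher in NES tumors. Without the 4 arrays that stand apart the counts were 8 in SYN1, 7 in SVZ and 4 in NES tumors, beside 25.6%, 25.9% and 8.2% of all genes. The comparisons within a region share their normal arrays, which also gave the GFAP differences that helped choose the genes. Differences from these arrays lean downward in advance, so the counts and p-values are not independent support. Neuron markers moved beside these counts: their mean signal was 8.86 to 9.90 in SYN1 cortex tumors, 8.13 to 11.34 in GFAP cortex tumors and 12.00 to 12.22 in normal cortex. It was 10.55 to 11.83 in NES tumors, 9.41 to 11.23 in GFAP hippocampus tumors and 11.71 to 12.00 in normal hippocampus, and 9.22 to 10.40 in SVZ tumors. Of the 12 neuron markers, 10 were lower in SYN1 tumors (median log2 difference -2.99), 10 in SVZ tumors (-2.71) and 0 in NES tumors (-0.70; 0 also at an unadjusted limma p under 0.05, with 10 of 12 below 0). For 5 of the 12 neuron markers, all NES arrays still lay below all normal hippocampus arrays, as for 11% of all genes. The median over the 10 immediate early genes was -1.60 in SYN1 tumors, -1.35 in SVZ tumors and -0.65 in NES tumors, and over all genes it was -0.04, -0.003 and -0.04 in the same 3 comparisons. Oligodendrocyte markers moved beside them too, with 5 of 5 lower in SYN1 tumors (median -2.21), 5 of 5 in SVZ tumors (-1.77) and 0 in NES tumors (-0.26, 0 also at an unadjusted limma p under 0.05). The part of neuron and oligodendrocyte content in the lower signals was not tested.

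Tumors made with different promoters were then compared within a region. The GFAP arrays of both comparisons helped choose the genes as low in GFAP tumors. Differences from them lean above 0 in advance, so these p-values are not independent support. Between SYN1 and GFAP cortex tumors, limma called 0 of the 10 genes, where 0.176% of all genes were called, and 0 had an unadjusted p under 0.05. The differences ran from -0.54 for Nr4a3 (95% interval -1.14 to 0.06) to 0.31 for Junb (-0.18 to 0.80), so changes of up to about 1 log2 unit are within the intervals. Without the 4 arrays that stand apart, Nr4a2 fell by 0.71 in SYN1 tumors (limma adjusted p = 0.0391), where 7.77% of all genes were lower. Between NES and GFAP hippocampus tumors, 9 of 10 differences were above 0, where the median over all genes was 0.06. That median was -0.16 with arrays centred on their medians, and the share of all genes above 0 was not counted. Of the 10, 1 gene passed the test, where 6.12% of all genes were higher. Nr4a3 was 2.19-fold higher in NES tumors (log2 difference 1.13, SE 0.26, limma adjusted p = 0.0191), a call lost without NES tumor 2 (0.0726), 3 (0.104) or 4 (0.0743). Arc differed by 0.90 (SE 0.32, limma adjusted p = 0.0694), Npas4 by 0.89 (SE 0.32; 0.0721), Fosb by 0.78 (SE 0.28; 0.0728) and Egr1 by 0.60 (SE 0.22; 0.0798). Without the 4 arrays that stand apart, Arc (1.03, limma adjusted p = 0.0292), Nr4a3 (0.97; 0.0183) and Npas4 (1.00; 0.0436) were higher in NES tumors, where 10.4% of all genes were. Neuron marker means were 10.55 to 11.83 in NES tumors and 9.41 to 11.23 in GFAP hippocampus tumors, and their part was not tested.

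GFAP tumors were also compared across regions, where few of all genes were called. The count was 0 of 10 between hippocampus and cortex tumors (2.68% of all genes called), 0 between SVZ and cortex tumors (0.00502%) and 0 between SVZ and hippocampus tumors (0.316%) in limma, with 1, 0 and 1 genes at an unadjusted p under 0.05. The nearest was Nr4a2, with a difference of -0.86 between hippocampus and cortex tumors (limma adjusted p = 0.163), and called without GFAP cortex tumor 1 (-1.25; 0.0273). When the change in NES tumors was set against the change in SYN1 tumors, Fos (log2 difference of differences 1.17, SE 0.31, limma adjusted p = 0.0302) and Egr1 (1.39, SE 0.35, limma adjusted p = 0.0255) passed, 2 of 10 beside 3.11% of all genes. Both calls were lost, among others, without normal cortex 2 (0.0761 and 0.0626) or NES tumor 2 (0.079 and 0.0686). Promoter and region cannot be told apart in this last comparison.

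Normal tissue itself differed by region. Nr4a2 was 2.11-fold and Nr4a3 1.84-fold higher in normal hippocampus than in normal cortex, while Arc was 1.94-fold lower there. In the fit of all 30 arrays, limma called 0 of the 10 genes between normal hippocampus and normal cortex (1.29% of all genes), with 8 at an unadjusted p under 0.05. When the 8 normal arrays were fitted alone, an alternative chosen after seeing the data, 9 of 10 passed. Of these, 2 were higher in hippocampus, beside 4.92% of all genes, and 7 were lower, beside 8.96%. Nr4a2 differed by 1.08 (SE 0.16, limma adjusted p = 0.000303) and Nr4a3 by 0.88 (SE 0.15, limma adjusted p = 0.000726). The lower ones were Arc at -0.96 (SE 0.13, limma adjusted p = 0.000153), Npas4 at -0.87 (0.00518), Egr2 at -0.89 (0.00718), Fosb at -0.81 (0.00108), Egr1 at -0.70 (0.000329), Nr4a1 at -0.61 (0.0108) and Fos at -0.59 (0.0303), each with the limma adjusted p in parentheses. Junb, at -0.39, did not pass (limma adjusted p = 0.176). Without normal cortex 2, the negative differences were smaller, such as -0.62 for Egr2, and Nr4a2 (1.27) and Nr4a3 (1.05) differed by more. Leaving out each of the 8 normal arrays in turn kept all of these calls but that of Fos, which held in 3 of 8. Among the pathway lists, this fit called 1 higher and 5 lower of 18 other immediate early regulators, 2 higher and 8 lower of 21 activity effectors, 1 higher and 4 lower of 21 upstream genes, and 2 higher and 2 lower of 13 growth factor genes. The largest in each direction were Jun (0.67, limma adjusted p = 2.27e-05) and the early response gene Ier5 (-1.08, limma adjusted p = 7.24e-07) among the regulators, Dusp4 (0.59, limma adjusted p = 0.00738) and Pcsk1 (-1.21, limma adjusted p = 2.17e-06) among the effectors, and Elk1 (0.47, limma adjusted p = 0.00472) and the neuronal factor Mef2c (-1.46, limma adjusted p = 1.31e-07) upstream. Among the growth factor genes they were Errfi1 (0.40, limma adjusted p = 0.00298) and Ccn2 (-1.08, limma adjusted p = 0.00241). Of the neuron markers, 3 of 12 were lower in hippocampus and 0 higher, with a median of -0.13.

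**Figure D3:**
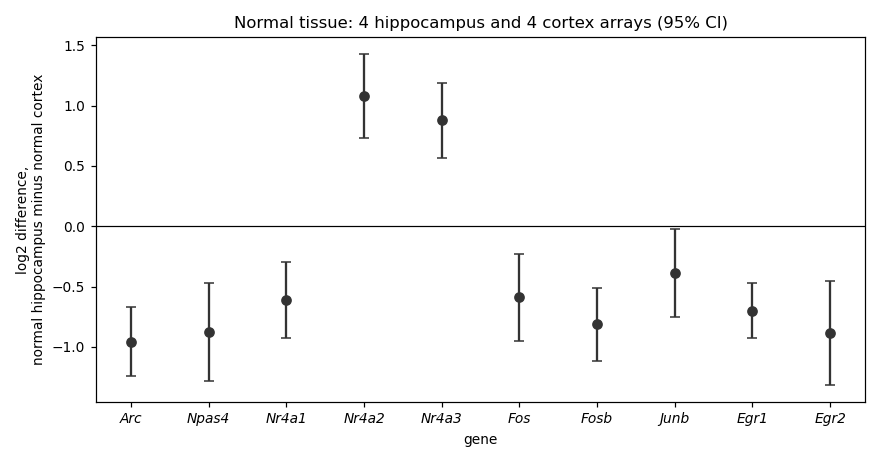
Log2 difference, normal hippocampus minus normal cortex (y axis), of the 10 genes (x axis), from the fit of the 8 normal arrays alone, with 95% intervals. Nr4a2 (1.08) and Nr4a3 (0.88) lie above 0 and the other 8 genes below it, with the interval of Junb closest to 0.

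Single arrays carried the 10 genes together. NES tumor 2 was the highest of the 4 NES tumors for 10 of 10 genes, whereas it was the highest for 10.9% of all genes. Normal cortex 2 was the highest of the 4 normal cortex arrays for 10 of 10, and for 22.2% of all genes. SVZ tumor 3 was the highest for 7 of 10, and for 44.1% of all genes. The neuron marker mean of NES tumor 2 was 11.52, against 10.55, 11.83 and 11.30 in the other 3 NES tumors, so it was not the highest of the 4 by that measure.

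Genes that neighbour these in the pathway were read from 4 lists. Signalling genes upstream (receptors, calcium channels, kinases and CREB coactivators) had 21 of 25 measured here, and 16 of 21 were lower in SYN1 tumors, 16 in SVZ tumors and 3 in NES tumors, with 0 higher in any of these, where 20.5%, 21.4% and 2.86% of all genes were lower. Without the 4 arrays that stand apart these counts were 17, 20 and 7, where 25.6%, 25.9% and 8.2% of all genes were lower. In SYN1 tumors the largest drops were in Camk4, a kinase of CREB (-3.96, limma adjusted p = 1.01e-06), Adcy1, a calcium-stimulated adenylyl cyclase (-3.87; 6.29e-06), and the NMDA receptor subunits Grin2b (-3.79; 5.33e-05) and Grin2a (-3.59; 2.2e-05). In NES tumors Grin2a (-2.03, limma adjusted p = 0.0266), Adcy1 (-1.98; 0.0245) and the CREB coactivator Crtc1 (-1.20; 0.0318) passed.

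The remaining immediate early regulators included called genes in both directions. Of 18, 6 were higher and 4 lower in SYN1 tumors, 5 higher and 2 lower in SVZ tumors, and 1 higher and 1 lower in NES tumors. Over all genes 18.2% were higher and 20.5% lower in SYN1 tumors, 16.2% and 21.4% in SVZ tumors, and 5.69% and 2.86% in NES tumors, so several of these counts are near the share of all genes. Without the 4 arrays that stand apart, 9 were higher and 5 lower in SYN1 tumors, 9 and 3 in SVZ tumors, and 1 and 2 in NES tumors. Over all genes 23.1%, 21.8% and 11.2% were then higher and 25.6%, 25.9% and 8.2% lower. In SYN1 tumors Egr3 (-2.13, limma adjusted p = 9.39e-08), Egr4 (-1.80; 5.16e-07) and the clock gene Per1 (-1.37; 0.000544) were lower. Maff (2.38, limma adjusted p = 4.37e-05), Klf4 (1.88; 0.000278) and the stress factor Atf3 (1.69; 9.48e-05) were higher. In NES tumors Atf3 was higher (1.41, limma adjusted p = 0.00461) and Egr4 lower (-0.83; 0.0105).

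Effectors that follow activity also had called genes in both directions. Of 21, 9 were lower and 4 higher in SYN1 tumors, 9 lower and 4 higher in SVZ tumors, and 1 lower and 1 higher in NES tumors, the higher counts being near the shares of all genes given above. They were, with the 4 arrays left out, 10 lower and 6 higher, 9 lower and 7 higher, and 2 lower and 2 higher in the same order of groups. In that setting 25.6%, 25.9% and 8.2% of all genes were lower and 23.1%, 21.8% and 11.2% higher. The NES counts are near these shares. The prohormone convertase Pcsk1 (-3.26, limma adjusted p = 2.18e-07), the neuritin gene Nrn1 (-3.03; 2.85e-05), Nptx2 (-2.14; 3.88e-05) and Homer1 (-2.10; 6.45e-06) were lower in SYN1 tumors. The prostaglandin synthase Ptgs2 (2.92, limma adjusted p = 0.00226), the ERK phosphatase Dusp4 (2.79; 9.89e-06) and the activin subunit Inhba (2.07; 0.00992) were higher there. Bdnf, a neurotrophin induced by activity, was lower in NES tumors (-0.52, limma adjusted p = 0.00483), and Gadd45g was higher (0.74; 0.0368).

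Immediate early genes known from growth factor responses were higher. Of 13, 11 were higher in SYN1 tumors, 11 in SVZ tumors and 7 in NES tumors, with 0 lower, where 18.2%, 16.2% and 5.69% of all genes were higher. These counts were 12, 12 and 9 without the 4 arrays that stand apart, where 23.1%, 21.8% and 11.2% of all genes were higher. In SYN1 tumors the urokinase receptor gene Plaur (3.91, limma adjusted p = 2.48e-06), the AP-1 gene Fosl1 (3.10; 0.000139) and Myc (2.73; 5.09e-05) were higher. In NES tumors Ccn1, a secreted matrix protein (2.30, limma adjusted p = 0.00194), the EGF family ligand Hbegf (1.92; 0.000514) and Myc (1.74; 0.0201) were higher. The AP-1 family held members on both sides in SYN1 tumors, with Fosl1 higher and Fos and Fosb lower. Microglia and macrophage markers were higher beside them, 7 of 8 in SYN1 and SVZ tumors and 8 of 8 in NES tumors, and their part was not tested.

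**Figure D4:**
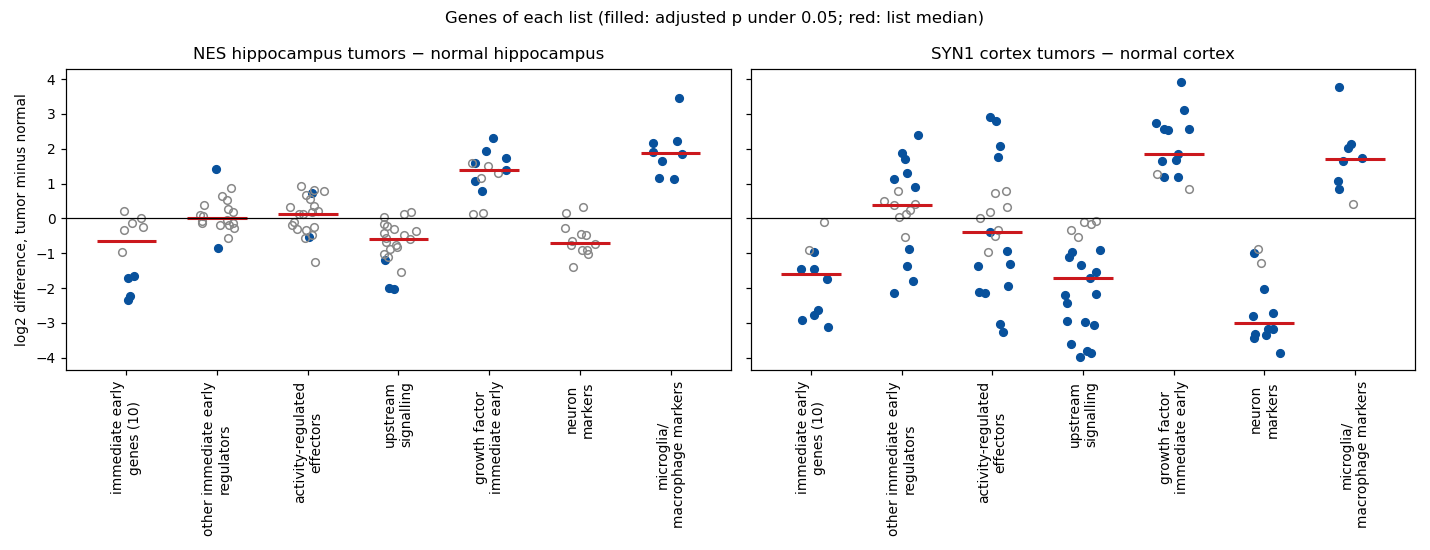
Log2 difference, tumor minus normal (y axis), of every gene of 7 lists (x axis) in NES hippocampus tumors (left) and SYN1 cortex tumors (right); filled points have an adjusted p under 0.05 and bars are list medians. In SYN1 tumors the 10 immediate early genes (median -1.60) and the upstream genes (-1.71) lie mostly below 0, and the growth factor genes (1.84) above it; in NES tumors the same medians are -0.65, -0.60 and 1.38.

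Genes with the most similar course over the 30 arrays were ranked by the root mean square difference of log2 signals after each gene was centred on its own mean. Npas4 was the nearest gene to Arc (0.47), and Stx1a, a presynaptic syntaxin, the nearest to Npas4 (0.39). Fosb lay nearest to Egr4 (0.36), Egr3 (0.40) and Gpr3 (0.40). Nr4a3 lay nearest to the neuronal transcription factors Neurod1 (0.38), Fezf2 (0.41) and Prdm8 (0.43), and Egr2 to Nab2, a corepressor of EGR proteins (0.46). Nr4a1 lay nearest to Rspo2 (0.50) and Nr4a2 to Camta2 (0.44). The nearest genes to Egr1, Fos and Junb were Catsperz (0.31), Akt2 (0.28) and Rhd (0.27), where Fos and Junb themselves varied little, with a root mean square of 0.38 and 0.36 around their means, against 0.66 for Egr1. All of these points share the tumor and normal groups, so the distances describe these arrays.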

How the data were processed

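Total RNA of 22 tumors and 8 normal brain samples was hybridised to 1-colour arrays. The authors deposited 1 log2 value per probe set and array, made with Affymetrix Power Tools and RMA per the submitters' processing notes, which also name MAS5 in an unstated role; versions are not given in the sources used here. Of 35556 probe sets, 21789 carry 1 gene symbol, 1621 several and 12146 none, and 21698 of the first matched RefSeq. For each of 19938 genes the single-symbol probe set with the highest mean over the 30 arrays was used. The values were fitted as deposited, without further normalization.

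Means of the 7 groups were fitted over all 30 arrays with limma 3.58.1 (lmFit, eBayes) in R 4.3.3, and p-values were adjusted by Benjamini-Hochberg over all genes in each of 13 contrasts, with a threshold of 0.05. The fit was tested on simulated data. The number of arrays per group, 3 to 7, limits the precision. The 10 genes and the lists were chosen with earlier results of these data known, and support nothing on their own. From each list, up to 4 called genes per direction are named, those with the largest differences, and for each of the 10 genes up to 3 nearest genes. Alternatives included centred or quantile-normalized arrays, only the groups compared, array weights, a replicate block and leaving out arrays. Sample numbers correlated in all 4 same-numbered pairs of GFAP hippocampus and cortex tumors (0.277 to 0.306, deviations from group means over all genes), where 0 of the 10 genes were called with or without the block. Promoter sequences are from RefSeq. Some genes of the upstream list are not reported here.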

Additional observations from a re-analysis of the deposited data

Results flagged for a closer look

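In groups of 4 to 7 arrays, 8 of 60 tests over the 10 genes found an array farther from its group than Dixon's 95% limit allows. Chance flags about 1 in 20 single tests, but these genes share arrays, so the 60 tests are not independent. Whether the count exceeds chance therefore cannot be judged. In NES tumor 2, Fosb stood high at 9.98. In normal cortex 2, Arc at 12.02, Egr2 at 10.45 and Junb at 9.31 stood high, and in normal hippocampus 2 so did Fos at 8.18. Among GFAP tumors, Egr1 stood high in cortex tumor 4 at 10.10 and low in hippocampus tumor 7 at 8.54, and Npas4 stood high in hippocampus tumor 5 at 7.20.

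Effects differed between groups by a limma test of the difference in 3 cases. Nr4a3 was higher in NES than in GFAP hippocampus tumors by 1.13, although the GFAP arrays helped choose the genes. The tumor change in NES hippocampus exceeded that in SYN1 cortex by 1.17 for Fos and 1.39 for Egr1.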

How the results depend on the processing

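The counts of 8, 4 and 7 called genes in SYN1, NES and SVZ tumors ran from 7 to 9, 4 to 6 and 5 to 7 over the other scalings, filters, fits and thresholds, where the 6 in NES tumors, with array weights, held 2 higher genes. With each array left out they ran from 8 to 8, 4 to 6 and 6 to 7. Of single values, 1 reversed: Fosb in NES tumors was 0.871 with array weights. Centring arrays moved the median of all genes in NES tumors to -0.2017, against -0.0445, and changed the split of higher and lower genes to 955 and 1461, against 1135 and 571; with it Npas4 passed there at -1.11 (limma adjusted p = 0.0454). The NES against SYN1 contrast, 2 calls, gave 1 with quantile normalization, 5 with only the groups compared, 8 with array weights, 0 at an adjusted p of 0.01 and 5 without the 4 arrays that stand apart. NES against GFAP, 1 call, gave 0, 5, 0 and 3 under only the groups compared, array weights, 0.01 and without the 4 arrays, and 2 with GFAP hippocampus tumors 1 to 4 only. The region contrast of GFAP tumors, a description since it rests on the differences that chose the genes, had 0 calls and gave 1 when centred, quantile-normalized or without the 4 arrays, and 2 with weights. Normal hippocampus against cortex, 0 calls, gave 9 with only its groups, 9 with weights and 2 without the 4 arrays. GFAP hippocampus against cortex and SVZ against cortex gave 1 each with weights, and the first of these and SYN1 against GFAP gave 1 without the 4 arrays. Leaving out single arrays gave 0 to 6, 0 to 4, 0 to 1, 0 to 0 and 0 to 1 for NES against SYN1, NES against GFAP, the region contrast, the normal tissues and GFAP hippocampus against cortex, and 8 to 9 for the 8 normal arrays alone, an alternative chosen after seeing the data. Calls over all genes rose in some of these settings too. Without the 4 arrays, 11.2% of all genes were higher for NES against SYN1, against 3.11%, and 10.4% for NES against GFAP, against 6.12%. With only the 8 normal arrays, 13.9% of all genes were called, against 1.29%. Shares over all genes are not given for most other settings or the replicate block, so those counts are not results about the 10 genes. The cause of these shifts was not tested. Apart from GFAP hippocampus and cortex tumors, groups share only sample numbers that do not pair them. With these as a replicate block, the count was 9 in SYN1 tumors, with Egr2 added (limma adjusted p = 0.0247), 4 in NES and 7 in SVZ tumors, 9 between normal tissues, 1 in the region contrast, 5 for NES against SYN1 and 0 for NES against GFAP.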
